A study of Mus musculus with 4 samples.

Results

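Mov10 and 7 genes whose products work with it in RNA silencing and RNA decay (Fmr1, Fxr1, Fxr2, Ago1, Ago2, Tnrc6a and Upf1) were examined in direct RNA nanopore reads of mouse embryonic stem cells. The genes were chosen by symbol, and all 8 were present among the 13831 symbols of the deposited table. They held 493 of 1903919 reads with a tail length above 0, of which 110 were in WT 1 and 108 in WT 2, against 183 in KO 1 and 92 in KO 2. The cells were of the J1 background, grown in medium with serum and the cytokine LIF and given no treatment. They were either wild type (WT, 2 libraries) or knocked out for Mov10 (KO, 2 libraries). Whether the knockout was a single clone, how the allele was made, and whether the libraries came from separate cultures are not given in the sources used here, so p-values measure only the spread between these libraries. The stated purpose was to compare poly(A) tail length between the genotypes. In this method a native RNA strand is read from its 3′ end, tail included, so 1 read stands for 1 molecule and levels are not divided by gene length.

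Mov10 is an RNA helicase that binds messenger RNAs near their ends and restricts retrotransposons. It associates with the fragile X protein FMRP, made by Fmr1, and with the Argonaute proteins, which carry microRNAs to their targets. Argonaute bound to a target recruits the Tnrc6 scaffold proteins, and these bring deadenylases that shorten the tail. Upf1 is another helicase, the central factor of nonsense-mediated decay, and Mov10 has been found in complex with it.

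The libraries held 439535 (WT 1), 351133 (WT 2), 683239 (KO 1) and 430012 (KO 2) reads, so 1 read of a gene was worth from 1.46 to 2.85 reads per 1000000 reads (RPM). Library medians of tail length ran from 97.3 to 105.8 nucleotides (nt) and did not follow genotype, since WT 2 and KO 1 had the longer tails. All 10 stem cell markers examined, among them Pou5f1, Nanog and Sox2, had reads in all 4 libraries. Their summed level was 9565 RPM in WT 1 and 9691 RPM in WT 2, against 8307 RPM in KO 1 and 7246 RPM in KO 2. This difference was not tested. Of the 4815 genes tested for read number, 15.5% were lower in KO without overlap in RPM. Of 7 fibroblast feeder markers only 1, Thy1, had any read, and the summed level was 5.70 to 14.0 RPM. Markers of primitive endoderm (3 of 5 with reads, 1.46 to 5.70 RPM), of primed epiblast and early mesoderm (3 of 5, 2.93 to 9.30 RPM) and of two-cell-like cells (4 of 5, 0 to 11.4 RPM) were near the level of single reads. Replicates differed by more than counting noise (chi-square per degree of freedom of 4.09 in WT and 1.86 in KO over gene read numbers) and were kept as separate libraries.

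The DNA just upstream of the start is shown for Mov10, the gene that was targeted, and for the 3 fragile X paralogs. Of these paralogs Fxr1 had the highest level in every library, while the levels of Fmr1 and Fxr2 overlapped. A link between these sequences and the levels was not tested. The sequences are the 100 bases before the first start listed by RefSeq on GRCm38.p6, with the GC box GGGCGG, a binding motif of Sp1-type factors searched on both strands, in capitals.
Mov10, chr3:104818564-104818663, minus strand: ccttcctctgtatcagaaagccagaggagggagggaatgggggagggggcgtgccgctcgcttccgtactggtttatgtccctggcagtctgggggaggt
Fmr1, chrX:68678441-68678540, plus strand: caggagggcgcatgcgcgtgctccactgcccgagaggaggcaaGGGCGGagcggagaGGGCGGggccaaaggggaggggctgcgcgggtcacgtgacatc
Fxr1, chr3:34019979-34020078, plus strand: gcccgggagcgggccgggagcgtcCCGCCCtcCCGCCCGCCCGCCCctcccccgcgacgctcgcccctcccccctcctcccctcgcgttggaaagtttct
Fxr2, chr11:69632871-69632970, plus strand: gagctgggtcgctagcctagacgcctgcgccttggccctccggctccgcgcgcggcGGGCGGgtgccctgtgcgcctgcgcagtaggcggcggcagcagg
The Mov10 window was 62% G and C with 4 CG dinucleotides and held no GC box. The Fmr1, Fxr1 and Fxr2 windows were 73, 80 and 78% G and C, with 10, 14 and 14 CG dinucleotides, and each held the motif. RefSeq promoters were matched for 7 members, and the motif was in 4 of them, the other one being Ago1, against 25.2% of 27025 promoter windows of the same length. Those windows had a median of 55% G and C and 3 CG dinucleotides, and the motif was not compared at like G and C content. Ago2 was not matched.

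The knocked-out gene was examined first, as a check of the labels. Reads of Mov10 (ENSMUSG00000002227.15) numbered 26 in WT 1 and 14 in WT 2, while KO 1 had 0 and KO 2 had 1. These were levels of 59.2 RPM in WT 1 and 39.9 RPM in WT 2, against 2.33 RPM in KO 2. A count of 0 allows up to 4.39 RPM in KO 1 at a limit of 3 reads, and its exact 95% interval reaches 5.40 RPM. Both WT libraries lay above both KO libraries, as they did in RPM for 15.5% of the 4815 genes tested for read number (962 genes with median-of-ratios scaling). The WT level was 56.3-fold the KO level over the summed reads (40 of 790668 against 1 of 1113251), with an exact 95% counting interval from 9.54 to 2279. Intervals and limits here and elsewhere cover counting error only. In limma's voom test of read number, Mov10 had the smallest p of 4815 genes (log2 change -5.08, Benjamini-Hochberg adjusted p = 0.0335). It was the 1 gene called, 0.0208% of those tested. The call held with scaling by total reads (limma voom, adjusted p = 0.0106), scaling by the upper quartile (0.0280), the replicate number as a block (9.35e-05) and no filter on read number (2.06e-06). It was lost with a mean of at least 5 reads (log2 change -5.08, adjusted p = 0.0659) and with limma on log2(RPM + 5) (log2 change -3.21, adjusted p = 0.134). Without KO 1 the log2 change was -3.94 and without KO 2 it was -6.17, and Mov10 was called in neither fit. Those fits assume that the lone KO library varies like the WT libraries. Without a WT library Mov10 fell under the minimum of 10 reads and was not tested. In bulk RNA, fewer cells with a transcript and less of it per cell cannot be told apart.

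**Figure D1:**
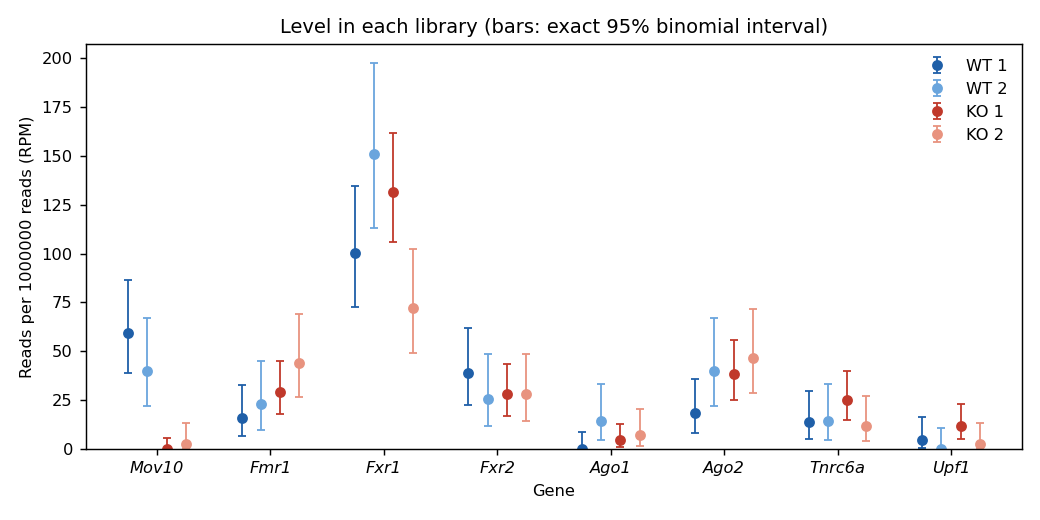
Level of the 8 genes in each library, in RPM on a linear axis from 0; points are libraries and bars are exact 95% binomial intervals for counting error. Mov10 is at 39.9 and 59.2 RPM in WT and at 0 and 2.33 RPM in KO, and Fxr1 is the highest of the 8 genes in every library.

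The WT reads of Mov10 came from 5 annotated transcripts, with no dominant one. Over all libraries, ENSMUST00000002297.11 had 11 of the 41 reads, ENSMUST00000166979.7 had 9, ENSMUST00000106774.7 and ENSMUST00000106775.7 had 8 each, and ENSMUST00000168015.7 had 5. The 8 reads of ENSMUST00000106774.7 were all in WT 1. The single KO 2 read was assigned to ENSMUST00000002297.11 and had a tail of 32.6 nt, shorter than every WT 2 read (47.9 nt or more) but within the range of WT 1 (29.4 to 234.1 nt). No read of these transcripts carried another symbol.

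Mov10 had a shorter median tail than most genes in both WT libraries, more so in WT 1 than in WT 2. Their median was 77.2 nt in WT 1 (quartiles 58.5 and 104.7 nt) and 100.4 nt in WT 2 (73.7 and 116.0 nt). Among symbols with at least 5 reads in the same library, that put Mov10 at the 7.37th percentile of 6432 in WT 1 and at the 29.9th percentile of 6269 in WT 2. Tails of 150 nt or more made up 3 of 26 reads in WT 1 and 1 of 14 in WT 2.

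The counted genes nearest to Mov10 on chromosome 3 had reads in all 4 libraries. Capza1, a subunit of the actin capping protein and next to Mov10 in the RefSeq order, had 45.5 and 62.7 RPM in WT and 49.8 and 69.8 RPM in KO, so its WT and KO libraries overlapped. The other counted genes named were not adjacent: Slc16a1, Trim33 and Ddx20 were at places -7, -36 and 13 from Mov10 in that order. Slc16a1 ranged from 25.0 to 39.9 RPM, Trim33 from 22.8 to 58.1 RPM and Ddx20 from 36.4 to 65.5 RPM over the 4 libraries. WT and KO overlapped for each. Rap1a, a small GTPase gene at place 15, had 43.2 and 22.8 RPM in WT and 55.6 and 62.8 RPM in KO. KO was thus higher without overlap, as it was in RPM for 25.2% of the 4815 genes tested for read number.

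The symbols whose pattern over the 4 libraries was nearest to that of Mov10, by Euclidean distance of centred log2(RPM + 5) among 4815 symbols, were Phlda2, Rhox13 and Lgals3. Phlda2, an imprinted growth regulator, was at 59.2 and 54.1 RPM in WT 1 and WT 2, and at 5.85 and 6.98 RPM in KO 1 and KO 2 (distance 0.821). Rhox13, a homeobox gene of the X-linked Rhox cluster, was at 52.3 and 39.9 RPM in WT and 7.32 and 2.33 RPM in KO (distance 1.18). Lgals3, which encodes galectin 3, was at 79.6 and 39.9 RPM in WT and 13.2 and 11.6 RPM in KO (distance 1.43). Since they were picked for this pattern over only 4 libraries, these levels are a description.

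Of the fragile X genes, Fxr1 was the most abundant. Fxr1 (ENSMUSG00000027680.15) had 100.1 RPM in WT 1 and 150.9 RPM in WT 2, against 131.7 RPM in KO 1 and 72.1 RPM in KO 2. The lowest and second highest values were both from KO, so the groups overlapped. The log2 change in read number was -0.40 (95% interval -1.09 to 0.30; limma voom, adjusted p = 0.721), and without KO 2 it was 0.03.

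Fmr1 (ENSMUSG00000000838.17), the fragile X gene itself, had 15.9 RPM in WT 1 and 22.8 RPM in WT 2, against 29.3 RPM in KO 1 and 44.2 RPM in KO 2. Both KO libraries lay above both WT libraries, as they did in RPM for 25.2% of those 4815 genes (20.5% with median-of-ratios scaling). The counting intervals of neighbouring libraries overlapped, from 9.84 to 44.9 RPM in WT 2 and from 17.9 to 45.2 RPM in KO 1. The log2 change was 0.73 (95% interval -0.40 to 1.85; limma voom, adjusted p = 0.667). Its paralog Fxr2 (ENSMUSG00000018765.5) was at 38.7 RPM in WT 1 and 25.6 RPM in WT 2, against 27.8 RPM in KO 1 and 27.9 RPM in KO 2. Its KO libraries were within the WT range, and the log2 change was -0.31 (95% interval -1.26 to 0.63; limma voom, adjusted p = 0.863), with a value of 0.11 without WT 1.

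The fitted changes in tail length of the fragile X genes had both signs. Fxr1 was the 1 member with the 20 reads in each library that the tail test required. Its median tail was 124.3 nt in WT 1 (44 reads) and 105.5 nt in WT 2 (53 reads), against 131.3 nt in KO 1 (90 reads) and 132.1 nt in KO 2 (31 reads). Both KO libraries were above both WT libraries, as for 14.7% of the 1935 genes tested. The log2 change was 0.20 (95% interval -0.14 to 0.54; limma, adjusted p = 0.9998), and it was 0.08 without WT 2 and 0.32 without WT 1. Among the 1935 genes so tested none was called (0%) and 45 had an unadjusted p under 0.05 (2.33%).

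With the minimum lowered to 5 reads in each library, an alternative that took in 5106 genes, Fmr1, Fxr2, Ago2 and Tnrc6a also entered, so 5 of the 8 members were tested. Again no gene was called (0%), and 205 had an unadjusted p under 0.05 (4.01%). Fxr2 had the largest change of the 5 members. Its median tail was 158.1 nt in WT 1 (17 reads) and 147.3 nt in WT 2 (9 reads), against 97.7 nt in KO 1 (19 reads) and 89.5 nt in KO 2 (12 reads). Both KO libraries were below both WT libraries, as for 15.0% of the 5106 genes. The log2 change was -0.71 (95% interval -1.31 to -0.11; limma, unadjusted p = 0.0209, adjusted p = 0.907), so it did not pass. The value ran from -0.77 to -0.64 with each library left out, but was -0.37 (adjusted p = 0.999) when the mean of log2 lengths replaced the median.

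The reads show where these summaries part. Fxr2 tails were spread widely, with quartiles at 61.6 and 205.0 nt in WT 1 and at 59.7 and 213.5 nt in KO 2, so the outer parts of those libraries were alike while their medians lay apart. In WT 2 the quartiles were 98.6 and 205.7 nt, and in KO 1 they were 66.6 and 140.1 nt. Tails of 150 nt or more were 9 of 17 reads in WT 1 (52.9%) and 4 of 9 in WT 2 (44.4%), against 3 of 19 in KO 1 (15.8%) and 4 of 12 in KO 2 (33.3%). The exact 95% intervals were broad, from 27.8 to 77.0% in WT 1 and from 9.92 to 65.1% in KO 2. With a limit of 200 nt the share was 29.4% in WT 1, 15.8% in KO 1 and the same (33.3%) in WT 2 as in KO 2, and the KO minus WT difference in the mean share went from -24.1 to -6.81 percentage points.

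Fmr1 had among the longest tails. Its median was 188.6 nt in WT 1 (7 reads) and 147.2 nt in WT 2 (8 reads), against 158.7 nt in KO 1 (20 reads) and 139.4 nt in KO 2 (19 reads). The KO 1 value lay between those of WT, so the groups overlapped, and the log2 change was -0.16 (95% interval -0.78 to 0.45; limma, adjusted p = 1.000). It was 0.01 without WT 1 and -0.32 when log2 lengths were averaged instead. These medians were at the 98.05th, 87.5th, 91.6th and 89.6th percentiles of symbols with at least 5 reads in the same library.

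**Figure D2:**
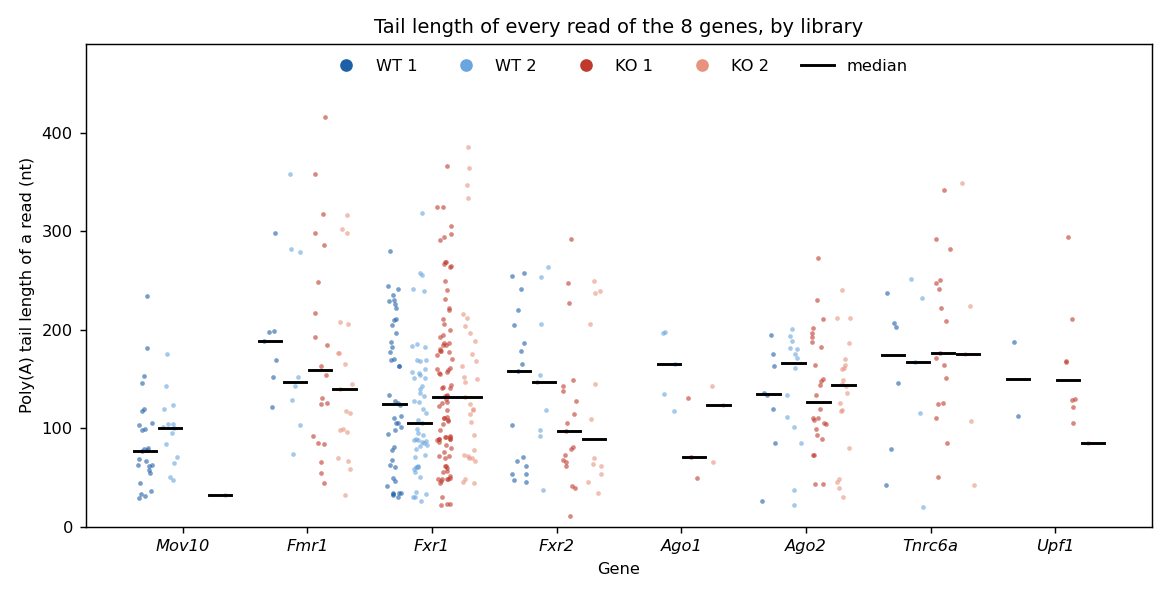
Poly(A) tail length in nt of every read of the 8 genes by library, on a linear axis; each point is a read and each black bar is the library median. Mov10 reads are mostly short (medians 77.2 and 100.4 nt in WT), while the Tnrc6a medians lie from 166.8 to 176.5 nt in all 4 libraries.

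The annotated transcripts of Fxr1 had unlike median tails. ENSMUST00000200392.4 took 130 of the 218 Fxr1 reads (59.6%), and its median tail was 144.1 nt in WT 1 and 133.0 nt in WT 2, against 149.5 nt in KO 1 and 147.3 nt in KO 2. The reads of the other 5 transcripts, pooled, had medians of 86.5, 86.1, 88.2 and 117.1 nt in the same order. The leading transcript was longer-tailed than these pooled reads in 4 of 4 libraries, by 49.0 nt ± 13.9 (SD, n = 4). An exact two-sided paired permutation test gave p = 0.125, the smallest that 4 libraries allow. The split was chosen after its values were seen, so this test cannot support it. Taken singly, not every transcript followed the pooled order. ENSMUST00000197694.4 had 168.0 nt in KO 2 (3 reads), and ENSMUST00000198051.4 had 135.8 nt in WT 2 (5 reads), both above the leading transcript there. The leading transcript's share of Fxr1 reads was 72.7% in WT 1 and 47.2% in WT 2, against 57.8% in KO 1 and 67.7% in KO 2. Both this share and the Fxr1 median were lowest in WT 2. The share was highest in WT 1, and the Fxr1 median of WT 1 lay below both KO medians. A link between the share and the tail length of the gene was not tested. Within the leading transcript, the log2 change in tail length was 0.10 (95% interval -0.32 to 0.52; limma over transcripts, adjusted p = 0.999), against 0.20 for the whole gene. Fmr1 reads were split over 6 transcripts with 5 to 12 reads each, and Fxr2 reads all lay on 1.

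**Figure D3:**
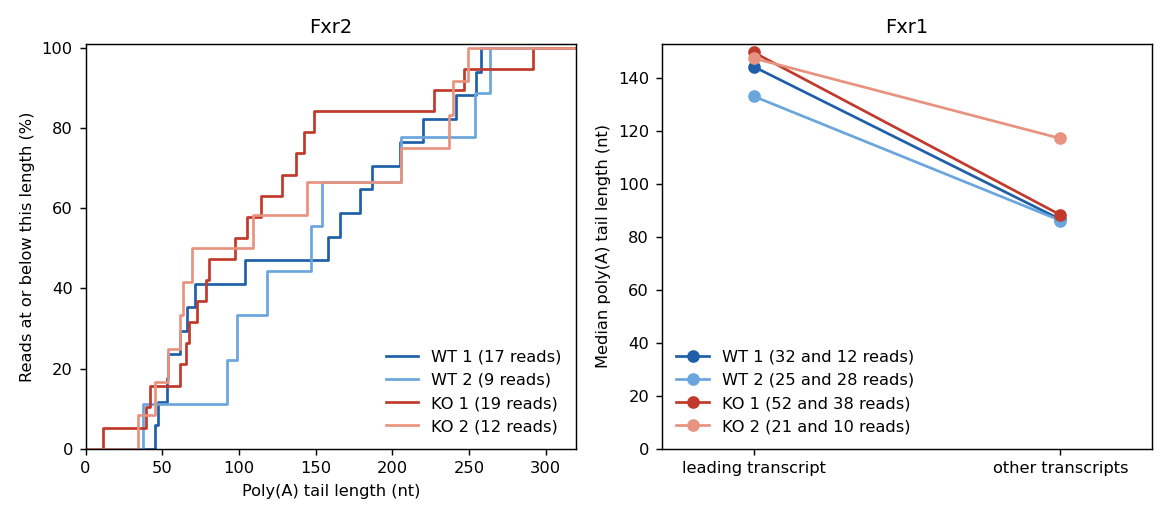
Left, cumulative share of Fxr2 reads (percent) by tail length (nt), a line per library; right, median tail length (nt) of the leading Fxr1 transcript and of its other transcripts, a line per library. The KO lines of Fxr2 lie to the left near the median (97.7 and 89.5 nt against 158.1 and 147.3 nt in WT). The Fxr1 leading transcript is longer-tailed than the pooled others in 4 of 4 libraries, a split chosen after its values were seen.

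Argonaute was represented mainly by Ago2, the family member that can cut its target. Ago2 (ENSMUSG00000036698.11) had 18.2 RPM in WT 1 and 39.9 RPM in WT 2, against 38.1 RPM in KO 1 and 46.5 RPM in KO 2. WT 1 stood low, and WT 2 lay among the KO libraries. The log2 change in read number was 0.51 (95% interval -0.45 to 1.47; limma voom, adjusted p = 0.747), and without WT 1 it was 0.05. Ago1 (ENSMUSG00000041530.16) had 0 reads in WT 1, which allows up to 6.83 RPM, and 5 reads in WT 2, 3 in KO 1 and 3 in KO 2, too few for either test. Its paralog Ago3 had 2 reads in all.

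Ago2 tails were 134.7 nt at the median in WT 1 (8 reads) and 166.1 nt in WT 2 (14 reads), against 126.5 nt in KO 1 (26 reads) and 143.7 nt in KO 2 (20 reads). The groups overlapped. The log2 change was -0.15 (95% interval -0.71 to 0.41; limma, adjusted p = 1.000), and averaging log2 lengths instead gave 0.06. The 5 Ago1 tails in WT 2 had a median of 165.3 nt, and the 6 in KO ran from 49.9 to 142.7 nt.

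Tnrc6a (ENSMUSG00000052707.8), the scaffold that links Argonaute to the deadenylases, had long tails in every library. Its median was 174.4 nt in WT 1 (6 reads) and 166.8 nt in WT 2 (5 reads), against 176.5 nt in KO 1 (17 reads) and 175.7 nt in KO 2 (5 reads). Both KO values were above both WT values by a few nt, as KO was longer without overlap for 14.8% of the 5106 genes. The log2 change was 0.05, with a 95% interval from -0.67 to 0.76 (limma, adjusted p = 1.000), and averaging log2 lengths instead gave 0.35. The geometric means were 130.2 nt in WT 1 and 117.9 nt in WT 2, against 172.8 nt in KO 1 and 144.7 nt in KO 2, a wider spread than that of the medians. Every library put Tnrc6a at or above the 94.9th percentile of symbols with at least 5 reads. Its level was 13.7 RPM in WT 1 and 14.2 RPM in WT 2, against 24.9 RPM in KO 1 and 11.6 RPM in KO 2, under the minimum for the read number test.

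Upf1 (ENSMUSG00000058301.8) had 2 reads in WT 1, 0 in WT 2, which allows up to 8.54 RPM, 8 in KO 1 and 1 in KO 2. These were too few for either test. With no filter on read number, the log2 change was 1.29 (95% interval -0.55 to 3.12; limma voom, adjusted p = 0.631). The 8 reads in KO 1 had a median tail of 148.6 nt, at the 86.7th percentile, and the 2 reads in WT 1 had tails of 112.3 and 187.4 nt.

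The 5 members with at least 5 reads in each library had longer tails than most genes. The median over these members was 158.1 nt in WT 1 and 147.3 nt in WT 2, against 131.3 nt in KO 1 and 139.4 nt in KO 2. The KO minus WT difference was -17.4 nt, but the direction turned to 9.87 nt when each gene was summarised by the mean of log2 lengths. The middle gene was Fxr2 in WT 1 and WT 2, Fxr1 in KO 1 and Fmr1 in KO 2, so this difference is not a change in any gene. Over the 5106 symbols with as many reads the median was 106.2, 112.8, 114.1 and 103.8 nt. The members were below the 50th percentile in 3 of their 20 library values: Fxr1 in WT 2 (37.1th) and Fxr2 in KO 1 (20.03th) and KO 2 (23.4th). Of the 5 members 2 had a longer and 3 a shorter fitted tail in KO, with a median log2 change of -0.15, beside 49.0% longer and a median of -0.00474 over the 5106 genes.

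The deposited table also sorts symbols into Mov10 targets with m6A (a methylated adenosine in the RNA), targets without m6A and non-targets, with the source of the classes not given. Fmr1, Ago2 and Tnrc6a were in the class of targets with m6A, Fxr1, Fxr2 and Ago1 in that of targets without m6A, and Mov10 and Upf1 in that of non-targets. Over symbols with at least 5 reads in each library, the median of gene medians in WT 1 was 111.7 nt for the 945 targets with m6A, 106.9 nt for the 1700 targets without and 102.7 nt for the 1657 non-targets. In the other libraries it was 117.2, 113.5 and 108.7 nt (WT 2), 121.5, 115.9 and 109.1 nt (KO 1) and 105.5, 105.2 and 101.6 nt (KO 2). Fmr1, Ago2 and Tnrc6a were above the median of their class in all 4 libraries. Fxr1 was above that of its class in WT 1, KO 1 and KO 2 but below it in WT 2, and Fxr2 was above it in both WT libraries and below it in both KO libraries. Mov10 was below that of its class in both WT libraries.

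**Figure D4:**
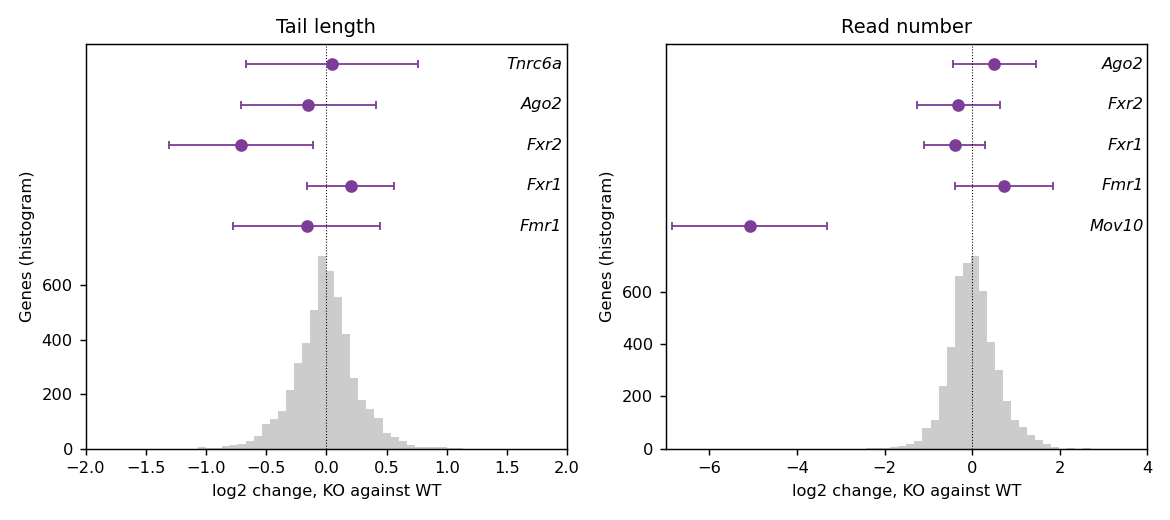
Log2 change of KO against WT in tail length (left, minimum of 5 reads in each library) and read number (right) for the members tested, with limma 95% intervals, above grey histograms of all genes tested (5106 and 4815). For tail length only the Fxr2 interval (-1.31 to -0.11) leaves out 0, with an adjusted p of 0.907 (limma), and for read number only that of Mov10 does.

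Other genes of these pathways were taken from 4 lists. No gene of the lists was called for read number by limma voom, and 5 of the 53 tested had an unadjusted p under 0.05, beside 10.4% of all 4815 genes. Of the RNA silencing list 14 of 23 genes were tested, 10 of them with more reads in KO (median log2 change 0.40, beside 0.00 and 50.0% higher over all genes). Of the nonsense-mediated decay list 14 of 22 were tested and 10 had more reads in KO (median 0.25), and of the FMRP-associated list 19 of 23 were tested and 14 had more (median 0.37). The retrotransposon control list had 6 of 11 tested and 3 with more reads in KO (median -0.02). With reads scaled by the library totals, the shares with more reads in KO were 78.6% (silencing), 85.7% (decay), 78.9% (FMRP-associated) and 66.7% (retrotransposon control), beside 59.1% of all genes. Without WT 1, the library with the lowest values of several of these genes, 6 of 14 silencing genes had more reads in KO (median -0.06), with 7 of 15 decay genes (-0.01) and 12 of 19 FMRP-associated genes (0.13). Without WT 2, 11 of 14 silencing genes (median 0.55), 13 of 14 decay genes (0.48) and 14 of 19 FMRP-associated genes (0.50) had more reads in KO. The limma voom fit then called 2, 1 and 3 genes of these lists, beside 456 of all 5086 genes, while without WT 1 it called 1 silencing gene, beside 90 of all 4978 genes. In these fits the lone WT library is assumed to vary like the KO libraries.

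The smallest p-values of the silencing list belonged to Ddx6, a helicase of mRNA repression, and Trim71, a stem cell ubiquitin ligase that binds RNA. Ddx6 had 9.10 RPM in WT 1 and 45.6 RPM in WT 2, against 54.2 RPM in KO 1 and 79.1 RPM in KO 2 (log2 change 1.53, limma voom, adjusted p = 0.317). Trim71 had 9.10 RPM in WT 1 but 79.7 RPM in WT 2, 73.2 RPM in KO 1 and 83.7 RPM in KO 2 (log2 change 1.43, adjusted p = 0.362, limma voom). Both were lowest in WT 1. Without that library the log2 change was 0.48 for Ddx6 and -0.03 for Trim71. Without WT 2 it was 2.47 and 2.74. Each of these fits rests on a lone WT library. Tnrc6c, a paralog of Tnrc6a on chromosome 11, had 15.9 and 5.70 RPM in WT 1 and WT 2 and 43.9 and 25.6 RPM in KO 1 and KO 2. Its WT and KO libraries did not overlap, with KO higher (25.2% of genes in RPM), and its log2 change was 1.55 (limma voom, adjusted p = 0.521). The log2 change of Tnrc6c was 2.37 without WT 1 and 0.89 without WT 2.

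In the decay list, Eif4a3, a core protein of the exon junction complex, had 118.3 and 170.9 RPM in WT and 240.0 and 341.9 RPM in KO. It had a log2 change of 0.89 (limma voom, adjusted p = 0.249), with 0.73 without WT 1 and 1.04 without WT 2. Etf1, the translation termination factor, had 0.56 (adjusted p = 0.492, limma), and Upf2, the partner of Upf1, had 0.74 (adjusted p = 0.690, limma), on 4 reads in WT 1. In the FMRP-associated list, Igf2bp1, an mRNA-binding protein, had 41.0 and 85.4 RPM in WT and 134.7 and 153.5 RPM in KO. It had a log2 change of 1.16 (limma voom, adjusted p = 0.188), with 0.74 without WT 1 and 1.57 without WT 2. Purb, a binder of purine-rich nucleic acid, had a log2 change of 1.49 (adjusted p = 0.467, limma) and the stress granule protein G3bp1 had 0.47 (adjusted p = 0.541, limma). In the retrotransposon control list, Rnaseh2c, an RNase H2 subunit, had 0.63, the antiviral zinc finger protein gene Zc3hav1 had 0.45 and the nucleotide hydrolase gene Samhd1 had -0.30 (limma voom, adjusted p = 0.616, 0.859 and 0.887).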

How the data were processed

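Per the labels' protocols, polyadenylated RNA was selected on oligo(dT) beads, prepared with the SQK-RNA002 direct RNA kit and DeePlexiCon barcodes, and read on R9 MinION flow cells. The submitters' processing notes name minimap2 2.20. The basecaller, tail length estimator, genome build and read filters are not given in the sources used here. The deposited table has a transcript, symbol, library and estimated tail length in nt per read, with no normalization recorded.

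Libraries were grouped by sample titles, and 3 reads with a length of 0 were left out. Tail length was tested with limma 3.58.1 (R 4.3.3) on log2 of the median per symbol and library, with a variance trend on log2 mean reads, at 20 or more reads in each library. Reads per symbol were counted here and tested with limma's voom (0.5 reads added, median-of-ratios scaling, a mean of at least 10 reads). Both fits used all genes, with Benjamini-Hochberg adjustment and a threshold of 0.05. Both were also run on data simulated with a preset spread between libraries. Such a run does not show how the tests perform at the spread of these libraries. Other steps used Python 3.11.15, pandas 2.3.3 and scipy 1.17.1. RPM are per 1000000 reads used.

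The 8 members were always named. In each list and test, up to 3 genes with the smallest unadjusted p were named, and beside Mov10 its 3 nearest symbols by pattern and 3 counted genes on each side. A neighbour is not reported here. The members and lists were chosen with earlier results of these data known. Of the transcripts in the table, 1566 carry more than 1 symbol (53.4% of reads), but none of the 23 member transcripts did.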

Additional observations from a re-analysis of the deposited data

How the results depend on the processing

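Limits include depth, since from 92 to 183 reads per library lay on the 8 genes, and the 2 libraries per genotype. The correlation of same-numbered deviations over genes was 0.0135 for tail length and 0.0158 for read number. These values show little variation shared by replicate number, but not whether same-numbered libraries were prepared together. With the replicate block the number of genes called was 0 for tail length and 65 for read number, against 0 and 1 without it, and no member other than Mov10 was called. Tail length gave 1 call with at least 10 reads in each library and from 0 to 2 calls with a library left out. Read number gave 7 calls when scaled by total reads (where the median gene shifted to 0.11), 96 without a filter, and 0 with a mean of at least 5 reads, with limma on log2(RPM + 5) or over transcripts; with a library left out it gave from 0 (without KO 1 or KO 2) to 456 (without WT 2). The cause was not tested. The KO minus WT difference in Mov10 level ran from -58.0 to -38.7 RPM. The difference in the median tail over 5 members was -17.4 nt, and turned to 9.87 nt with the mean of log2 lengths. The difference in their median share of long tails was -7.92 percentage points, -5.45 with a limit of 200 nt and from -8.06 to -7.78 with a library left out. The middle gene of that share was Tnrc6a in WT 1, Fmr1 in WT 2 and Fxr1 in KO 1 and KO 2. Its narrow range therefore does not show a steady shift of the members. Some signs changed. With a library left out, the log2 change in tail length ran from -0.34 to 0.0147 for Fmr1, -0.30 to 0.00111 for Ago2, -0.42 to 0.17 for Tarbp2, -0.0721 to 0.20 for Tsn, -0.14 to 0.0343 for Etf1 and -0.20 to 0.079 for Ncbp2. For read number it ran from -0.85 to 0.0295 for Fxr1, -0.67 to 0.11 for Fxr2, -0.0299 to 2.74 for Trim71, -0.086 to 1.50 for Upf2 and -0.79 to 1.56 for Zc3hav1. Zc3hav1 was -0.11 with the replicate block for read number, and averaging log2 lengths gave a tail change of 0.0556 for Ago2 and 0.00208 for Etf1.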

Other observations

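Tail length of the pathway lists was tested for few genes, and none was called by limma. Of the 22 genes tested, 10 had a longer fitted tail in KO, and 1 had an unadjusted p under 0.05, beside 2.33% of all 1935 genes. That gene was Syncrip, an FMRP-associated RNA-binding protein, with medians of 156.1 and 154.2 nt in WT 1 and WT 2 and 120.7 and 94.5 nt in KO 1 and KO 2 (log2 change -0.54, limma, adjusted p = 0.9998). None of the subunits of RNase H2, an enzyme that removes RNA from RNA-DNA hybrids, passed the test. Rnaseh2a had 84.1 and 93.1 nt in WT and 107.3 and 104.9 nt in KO (log2 change 0.26). Rnaseh2b had 91.6 and 103.3 nt in WT and 89.1 and 74.0 nt in KO (log2 change -0.26), and both had a limma adjusted p of 0.9998. Rnaseh2c was tested with at least 5 reads in each library (log2 change -0.00422, limma, adjusted p = 1.000).

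Among the silencing genes, Eif4e2, a cap-binding repressor, had a log2 change in tail length of -0.14, Tarbp2, a partner of Dicer, had -0.12 and Tsn, a subunit of the C3PO nuclease, had 0.06. In the decay list Rbm8a, Etf1 and Ncbp2 had 0.07, -0.05 and -0.06. Nufip1 and Ncl of the FMRP-associated list had -0.21 and -0.12. The adjusted p was 0.9998 for each of them (limma).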
